A study of Homo sapiens with 11 samples.

Results

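Minor spliceosomal and housekeeping noncoding RNAs were followed in lung adenocarcinoma cells in which the balance of wild-type (WT) and S34F mutant U2AF1 was shifted. They are 9 of the 57773 genes in the expression table: RNU11, RNU12, RNU4ATAC, RNU6ATAC, RN7SK, RN7SL1, RN7SL2, RMRP and RPPH1. Each was taken by its gene name, and each name stood in 1 row of the table. U2AF1 is the splicing factor that reads the AG at the end of major-type introns. HCC78 is a lung adenocarcinoma cell line that itself carries U2AF1 S34F and an SLC34A2-ROS1 fusion, and all groups share this background.

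RNA-Seq of total RNA was available for 9 libraries in 5 groups. WT dox+ and S34F dox+ are stable HCC78 lines with a doxycycline-inducible, FLAG- and 6xHA-tagged copy of WT or S34F U2AF1, treated with doxycycline (2 libraries each). WT dox- (2 libraries) and S34F dox- (1 library, labelled replicate 2) are the same lines without it, and the parental line has 2 libraries. The labels list the parental line without doxycycline, whereas the study's own list of samples gives it with doxycycline. The S34F share that the labels give was 62% and 65% in S34F dox+, 12% and 14% in WT dox+, 33% in both WT dox- libraries, 28% in S34F dox- and 32% in both parental libraries. The endogenous mutant and WT alleles remained in every group, so each comparison is between doses and not between mutant and non-mutant cells. The labels do not say that replicates came from separate cultures, so p-values measure the spread between these libraries, which may be technical.

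U11, U12, U4atac and U6atac, from the genes RNU11, RNU12, RNU4ATAC and RNU6ATAC, are the small nuclear RNAs particular to the minor spliceosome, which removes a rare class of introns. In it, U11 pairs with the 5′ splice site, U12 pairs with the branch point, and U4atac holds U6atac until the catalytic core forms. 7SK RNA, from RN7SK, holds the elongation kinase P-TEFb in an inactive complex. 7SL RNA, from RN7SL1 and RN7SL2, is the scaffold of the signal recognition particle (SRP), which brings ribosomes that make secreted proteins to the endoplasmic reticulum. RMRP is the RNA of RNase MRP, which acts in ribosomal RNA processing, and RPPH1 is the RNA of RNase P, which trims the 5′ end of transfer RNA precursors. U11, U12 and U4atac are made by RNA polymerase II and the others by RNA polymerase III.

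The libraries differed in ways that bear on these RNAs. S34F dox+ replicate 2 stood apart, with 20896 genes reaching 1 FPKM (fragments scaled by transcript length and library size), against 13661 to 17716 genes in the other 8 libraries. Since the deposited values are not counts, the depth behind each of them is unknown. A rough estimate of depth was read from the most common ratio of low FPKM values between a library and parental replicate 1. This estimate was lowest in S34F dox+, at 0.695 and 0.605, and was 1.05 and 0.856 in WT dox+. A shift of many weakly expressed genes could move it as well, which was not tested. FPKM of U2AF1 was 278 and 299 in WT dox+, 164 and 223 in S34F dox+ and between 103 and 115 in the 5 libraries without induction. The epithelial markers matched the label, with EPCAM between 407 and 545 FPKM and KRT19 between 1435 and 2246 FPKM. SLC34A2 was at 115 and 166 FPKM in the parental line and 40.1 to 70.5 elsewhere, and ROS1 was at 26.1 and 37.8 and 8.63 to 17.1, so the fusion partners were higher in the parental line than in the derived lines (limma unadjusted p of 0.00109 and 0.00647, adjusted p of 0.141 and 0.227, for WT dox- against parental). Of 8 markers of immune, endothelial and mesenchymal cells, 7 were in the table, with summed FPKM of 38.1 to 40.7 in S34F dox+, 28.6 to 30.3 in WT dox+, 18.9 to 22.1 in WT dox-, 25.9 in S34F dox- and 30.8 to 32.6 in the parental line. CD68 made up most of that sum, and PTPRC did not exceed 2.71 FPKM and was at 0 in parental replicate 2. The part of depth, of detected gene number and of these markers in the results below was not tested. In RNA from bulk cultures, fewer cells that hold an RNA and less of it per cell cannot be told apart.

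The 9 RNAs covered the whole scale of the table. RN7SL2, RN7SL1 and RN7SK held the top 3 ranks of all genes, in this order, by mean TPM (a per-length unit that sums to the same total in each library). RMRP was at rank 7, RPPH1 at rank 28, RNU11 at rank 104 and RNU12 at rank 219, whereas RNU4ATAC was above 0 in 1 library and RNU6ATAC in none. Together they took 19.0% of all TPM on average, from 17.8% in WT dox- replicate 1 to 20.9% in S34F dox+ replicate 1. RN7SL1 and RN7SL2 accounted for most of this, with 12.2% to 14.4% of a library. RN7SK held between 3.32% and 4.32%, and RMRP with RPPH1 between 1.77% and 1.99%. The minor spliceosomal RNAs together came to at most 0.360%.

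**Figure D1:**
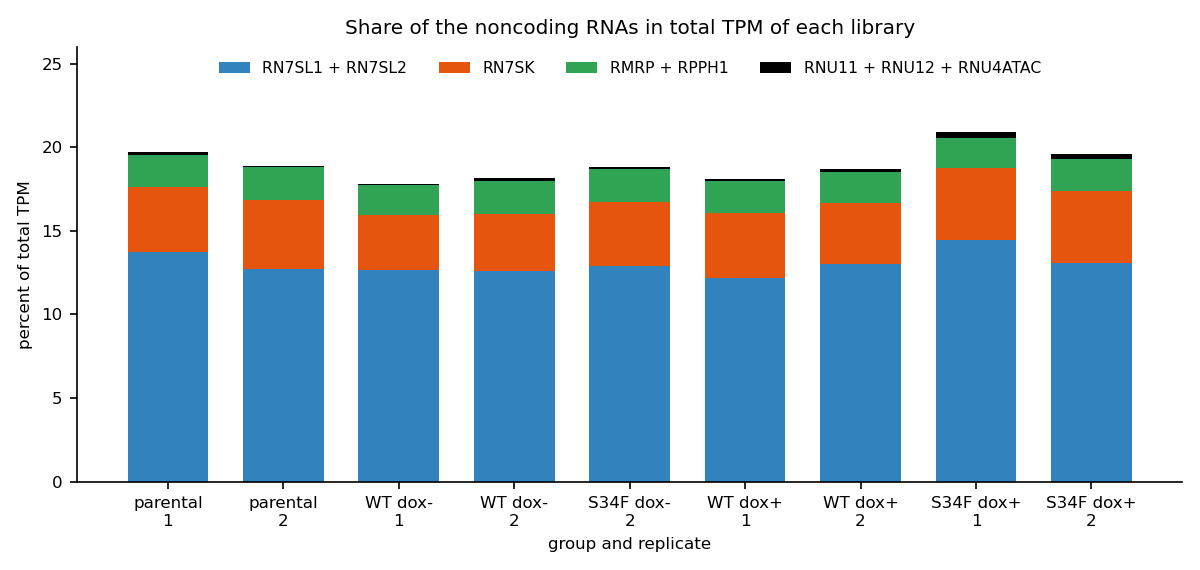
Stacked bars show the percent of total TPM (y axis) held by the noncoding RNAs in each of 9 libraries (x axis, group and replicate). The bar heights lie between 17.8% and 20.9%, and RN7SL1 with RN7SL2 forms the largest block of every bar.

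The order of the levels was the same in almost every library. TPM was higher for RN7SL2 than for RN7SL1 in 9 of 9 libraries, but by a ratio of only 1.00 to 1.08, and the ranges of these RNAs over the libraries overlapped. RN7SL1 was above RN7SK, RN7SK above RMRP, RMRP above RPPH1 and RPPH1 above RNU11 in 9 of 9 libraries, each pair with ranges that did not overlap. RNU11 was above RNU12 in the 7 libraries where it was not listed at 0, and their ranges overlapped. The ratio of RMRP to RPPH1, whose products share most of their protein partners, lay between 3.70 and 4.62 in TPM.

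Of the RNAs particular to the minor spliceosome, U11 and U12 were above 0 in most or all libraries, U4atac in 1 and U6atac in none. The values are not counts, so the number of reads behind a high value of these small RNAs is unknown. RNU11 (ENSG00000270103.2, listed as a lincRNA) was at 3335 and 2516 FPKM in S34F dox+ and at 939 and 1891 FPKM in WT dox+. In the uninduced libraries it was at 0 and 1369 FPKM in WT dox-, at 1078 FPKM in S34F dox- and at 1148 and 0 FPKM in the parental line, replicate 1 first in each pair. Both S34F dox+ libraries thus lay above the other 7. Only 3 of the 163 genes that reached 1000 FPKM in some library were listed at 0 in another, and these were RNU11 and 1 row each of SNORA18 and SNORA63, small nucleolar RNAs whose names stand in several rows. In all, 117 genes were at 0 in parental replicate 2 and WT dox- replicate 1 and in no other library. Of them only RNU11 and SNORA38B, a small nucleolar RNA, had a mean of 10 FPKM or more.

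RNU12 (ENSG00000270022.2, also listed as a lincRNA) was present in all 9 libraries. It was at 1111 and 536 FPKM in S34F dox+, 478 and 459 in WT dox+, 713 and 349 in WT dox-, 313 in S34F dox-, and 505 and 562 in the parental line. S34F dox+ replicate 1 stood alone at the top, whereas S34F dox+ replicate 2 lay within the range of the uninduced libraries. U11 and U12 act as a single particle, but the TPM ratio of RNU11 to RNU12 ranged from 1.97 to 4.70 over the 7 libraries that had both.

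RNU4ATAC (ENSG00000264229.1) was at 425 FPKM in parental replicate 1 and was listed at 0 in the other 8 libraries. RNU6ATAC (ENSG00000221676.1) was listed at 0 in all 9. Cells with active spliceosomes need such RNAs, and a value of 0 in this table does not show that an RNA was absent. Of 1916 genes of the snRNA class, 1869 were listed at 0 in all 9 libraries and 13 were above 0 in all 9. The same held for the 5 genes of U5 and the 5 genes of U6 that were looked up, RNAs of the major spliceosome that every cell uses. RNU4-1 and RNU4-2, the genes of U4, were well above 0, between 3631 and 7882 FPKM. Annotated copies were at or near 0. The 17 copies of RNU4ATAC, the 5 of RNU11 and the 1 of RNU12 were at 0 throughout, and 1 of 41 copies of RNU6ATAC was above 0, at 1.88 FPKM in S34F dox+ replicate 2.

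**Figure D2:**
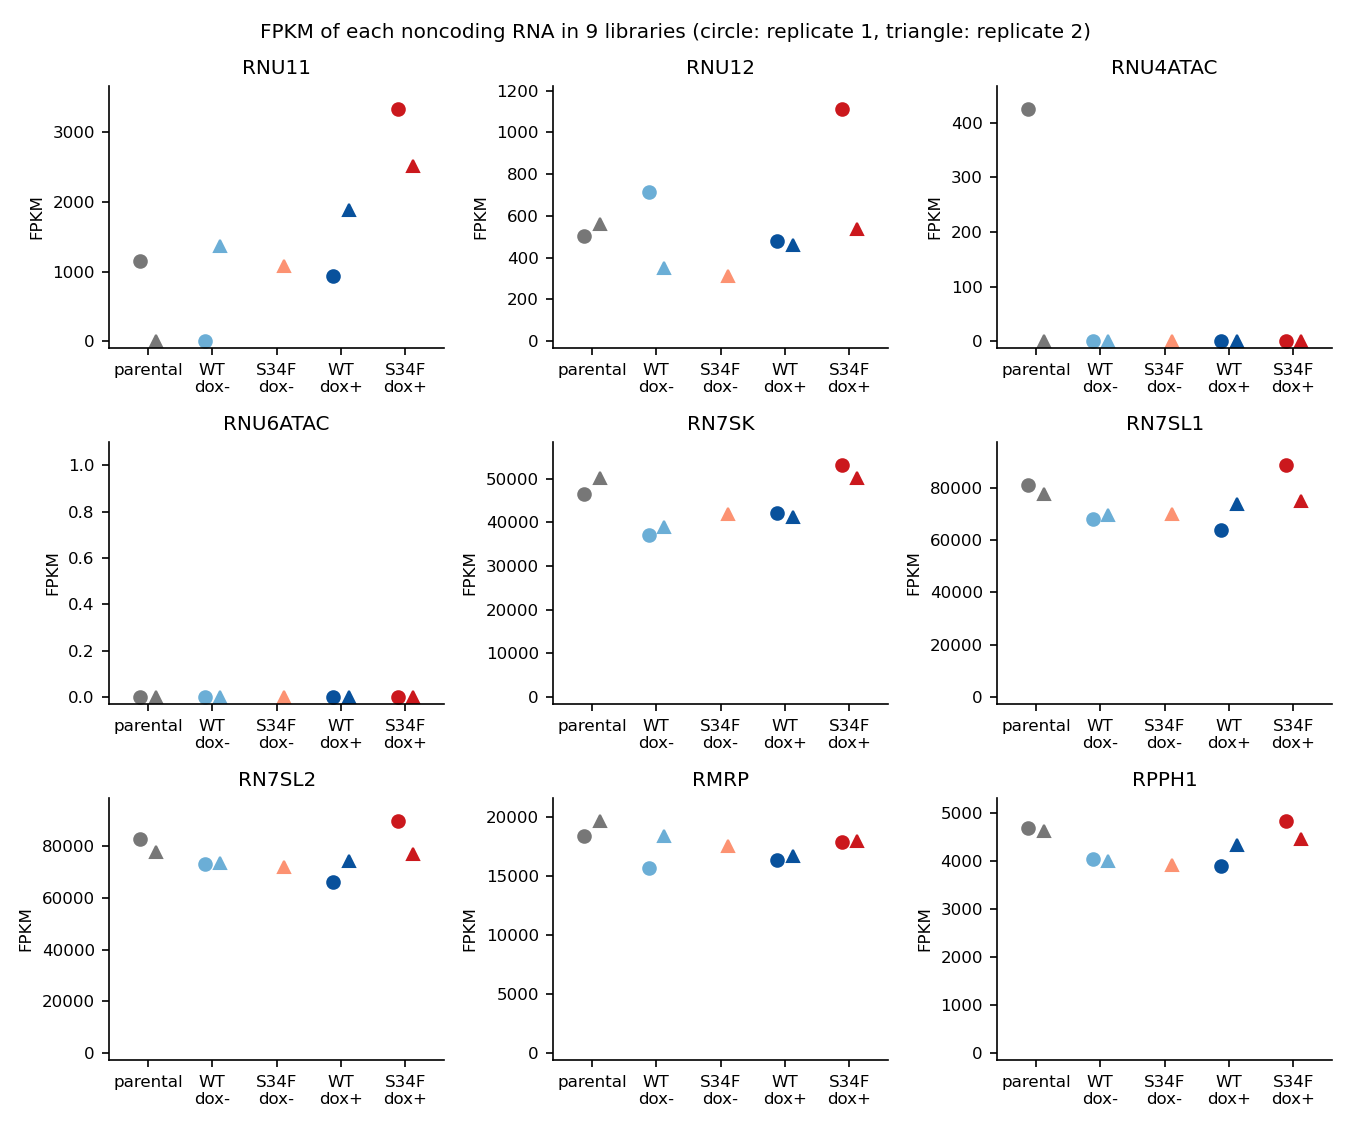
Each panel plots 1 noncoding RNA, with FPKM on a linear y axis and the 5 groups on the x axis, and each point is 1 library (circle for replicate 1, triangle for replicate 2). RN7SK, RN7SL1, RN7SL2, RMRP and RPPH1 stay within narrow bands, RNU11 falls to 0 in 2 libraries, and RNU4ATAC is above 0 only in parental replicate 1.

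RN7SK (ENSG00000202198.1) was at 53123 and 50192 FPKM in S34F dox+, 42190 and 41297 in WT dox+, 37055 and 38958 in WT dox-, 42054 in S34F dox-, and 46533 and 50136 in the parental line. The values of S34F dox+ and of the parental line were high, those of WT dox- were the lowest, and no group of the WT line overlapped with another group of 2 libraries. The 291 annotated copies of RN7SK summed to between 69.6 and 475 FPKM, with the highest sum in S34F dox+ replicate 2, far below RN7SK itself in every library.

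RN7SL1 (ENSG00000258486.2) was at 88525 and 74782 FPKM in S34F dox+, 63907 and 73528 in WT dox+, 68018 and 69321 in WT dox-, 69825 in S34F dox-, and 81114 and 77511 in the parental line. RN7SL2 (ENSG00000265150.1) followed it closely, with 89802 and 77126 FPKM in S34F dox+, 66408 and 74387 in WT dox+, 73330 and 73578 in WT dox-, 72194 in S34F dox-, and 83084 and 77721 in the parental line. For both genes S34F dox+ replicate 1 was the highest library and WT dox+ replicate 1 the lowest. These genes encode near-identical RNAs, so the division of reads between them is uncertain and they do not count as separate measurements. Their log2 values correlated over the 9 libraries with a Pearson r of 0.98 in FPKM and 0.92 in TPM. The other 846 genes named RN7SL, most of them copies of 7SL, summed to between 5961 and 7882 FPKM.

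RMRP (ENSG00000269900.2, listed as a lincRNA) was at 17822 and 17942 FPKM in S34F dox+, 16374 and 16703 in WT dox+, 15681 and 18409 in WT dox-, 17491 in S34F dox-, and 18362 and 19620 in the parental line. RPPH1 (ENSG00000259001.2) was at 4823 and 4448 FPKM in S34F dox+, 3894 and 4336 in WT dox+, 4035 and 3985 in WT dox-, 3921 in S34F dox-, and 4686 and 4629 in the parental line. Both RNAs spanned a narrow range, overlapped between WT dox+ and WT dox-, and were higher in both S34F dox+ libraries than in both WT dox+ libraries by small margins. The 5 copies of RMRP summed to 65.7 FPKM in S34F dox+ replicate 2 and to at most 1.75 FPKM in the other libraries, and the 2 copies of RPPH1 were at 0.

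In TPM, RPPH1, RN7SL2, RMRP and RN7SL1 were among the least variable of the abundant genes. Over the 9 libraries the coefficient of variation of TPM was 4.04% for RPPH1, 4.77% for RN7SL2, 4.94% for RMRP, 5.81% for RN7SL1 and 9.17% for RN7SK. Among the 981 genes that averaged 100 TPM or more, the median was 12.3%, and only 1 gene had a lower value than RPPH1. Of these genes, 0.815% were below RN7SL2, 0.917% below RMRP, 2.34% below RN7SL1 and 21.6% below RN7SK. RNU12 (39.0%) and RNU11 (76.8%) stood at the other end, and 95.9% and 98.6% of the genes varied less. The position was less marked in FPKM, where the coefficients were 6.81% for RMRP, 8.34% for RPPH1, 8.85% for RN7SL2, 10.1% for RN7SL1 and 12.5% for RN7SK, against a median of 11.6% over 1120 genes that averaged 100 FPKM or more. Of those, 8.93% varied less than RMRP, 21.2% less than RPPH1, 24.9% less than RN7SL2, 37.9% less than RN7SL1 and 57.1% less than RN7SK. FPKM summed to between 1071585 and 1235355 over all genes of a library, whereas TPM sums to the same total in each.

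**Figure D3:**
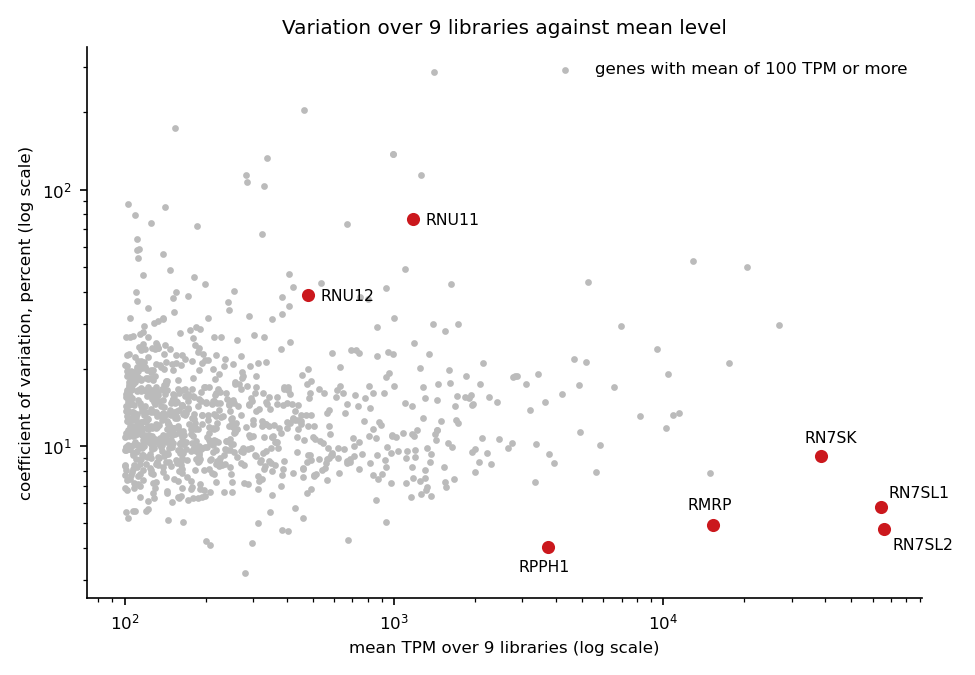
The coefficient of variation of TPM over 9 libraries (y axis, percent, log scale) is plotted against mean TPM (x axis, log scale) for the 981 genes that averaged 100 TPM or more, grey points, with noncoding RNAs of interest in red. RPPH1, RMRP, RN7SL1 and RN7SL2 lie at the lower edge of the cloud, between 4.04% and 5.81%, and RNU12 and RNU11 near the top, at 39.0% and 76.8%.

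The first comparison asks whether a higher share of mutant U2AF1 goes with other levels of these RNAs, and sets S34F dox+ against WT dox+. Total U2AF1 messenger RNA was also lower in S34F dox+ (log2 difference -0.59, SE 0.15, limma adjusted p = 0.531). The line, the mutant share, the WT dose and total U2AF1 differ together and cannot be told apart here. In limma across all genes, with log2(FPKM + 1), a minimum mean of 1 FPKM that 15179 genes passed, and Benjamini-Hochberg adjustment, 0 of the 8 noncoding RNAs that passed the minimum had an adjusted p under 0.05, beside 0.0527% of all genes (3 higher and 5 lower). RNU4ATAC passed that minimum through 1 library alone, and RNU6ATAC did not pass it. At an unadjusted p under 0.05 it was 1 of 8, RN7SK, against 6.78% of all genes. The limma estimate for RN7SK was a log2 difference of 0.31 (SE 0.11, 95% interval 0.05 to 0.56), or 1.24-fold, with an adjusted p of 0.658.

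All 7 RNAs with signal in these 4 libraries (RNU11, RNU12, RN7SK, RN7SL1, RN7SL2, RMRP and RPPH1) were higher in both S34F dox+ libraries than in both WT dox+ libraries in FPKM. Of all genes tested 20.5% were higher without overlap in this way and 15.3% were lower. In TPM this was so for 5 of them, without RN7SL1 and RMRP, against 10.9% of all genes, while 27.2% of all genes were lower without overlap. The median log2 difference of the 7 RNAs was 0.25, against 0.03 for all genes tested. In TPM these medians were 0.13 and -0.07, and after median-ratio scaling they were 0.18 and -0.03. After quantile normalization, which fixes the values of the first ranks by construction, they were 0 and -0.006. The median of the 7 was 0.13 without S34F dox+ replicate 1, 0.16 without WT dox+ replicate 1 and 0.35 without S34F dox+ replicate 2. RN7SL1 and RN7SL2 are 2 of the 7 in these counts and medians, although the division of their reads is uncertain. With 2 libraries against 2, an exact permutation test cannot give a two-sided p below 0.3333. The sum of FPKM over all genes was 1235355 and 1161468 in S34F dox+ and 1071585 and 1136710 in WT dox+, a difference that TPM, with its fixed total, does not carry.

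The sizes differed between the RNAs. RN7SL1 was 0.25 higher on the log2 scale (SE 0.14, limma adjusted p = 0.772), RN7SL2 was 0.24 higher (SE 0.13), RPPH1 was 0.17 higher (SE 0.10) and RMRP was 0.11 higher (SE 0.12). The 95% intervals reached from -0.07 to 0.56 for RN7SL1 and from -0.16 to 0.38 for RMRP. Leaving out 1 library moved RN7SL1 to 0.13 (S34F dox+ replicate 1) or 0.15 (WT dox+ replicate 1), RN7SL2 to 0.13 or 0.16 and RPPH1 to 0.11 or 0.10, in the same order. In TPM RPPH1 was at 0.05. RMRP turned to -0.01 in TPM and to -0.13 after quantile normalization. RNU12 was 0.72 higher (SE 0.39, limma adjusted p = 0.772), a value that rested on S34F dox+ replicate 1. It was 0.19 without that library and 1.24 without S34F dox+ replicate 2. RNU11 was 2.17-fold higher, with an SE of 3.75 on the log2 scale, since the shared spread of this gene holds the libraries at 0. On that scale it was 1.12, and 0.62 without WT dox+ replicate 1.

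**Figure D4:**
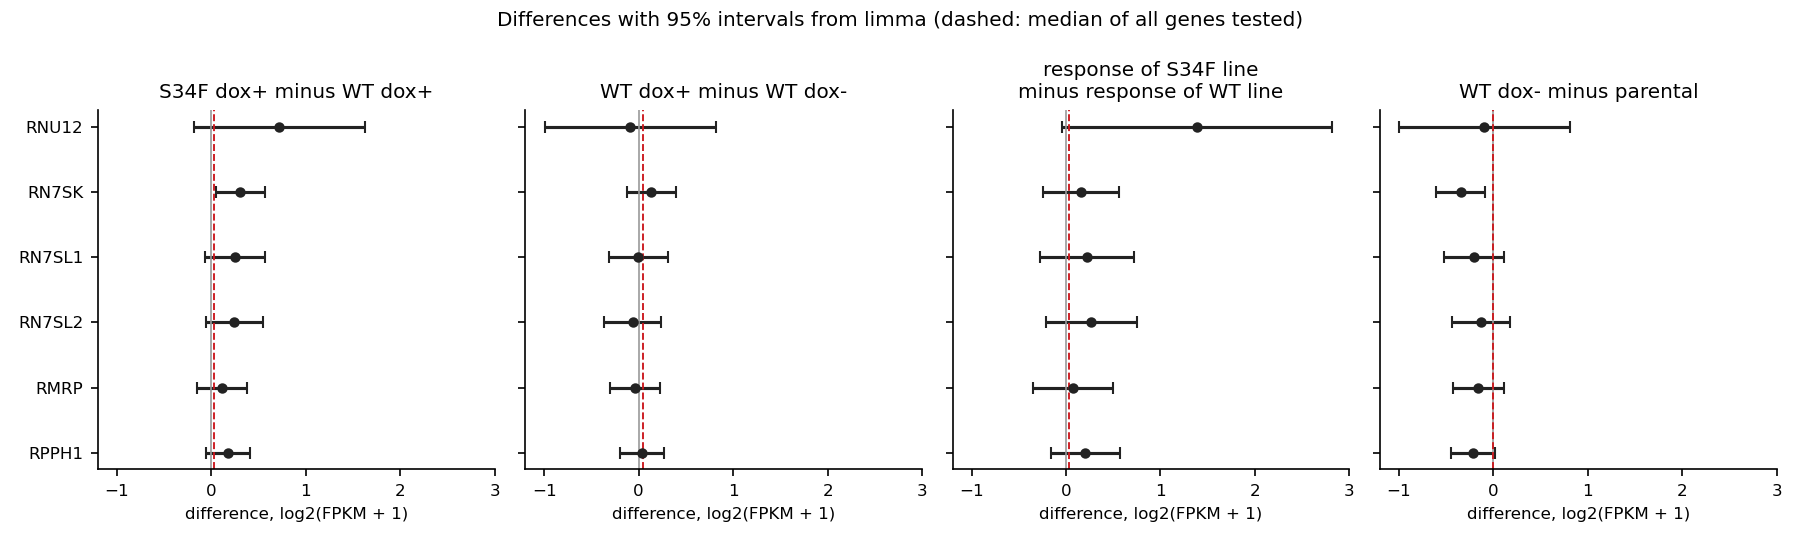
Points are limma differences in log2(FPKM + 1) with 95% intervals (x axis) for 6 noncoding RNAs (rows) in 4 comparisons (panels), and the dashed line is the median of all genes tested. The interval of RN7SK lies above 0 in S34F dox+ minus WT dox+ (0.05 to 0.56) and below 0 in WT dox- minus parental (-0.60 to -0.09), and every other interval spans 0.

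Ratios between these RNAs within a library do not depend on a scaling factor shared by all genes of that library. They could still shift with the correction for transcript and fragment length, which was not tested. Of the 10 TPM ratios among RN7SK, RN7SL1, RN7SL2, RMRP and RPPH1, 3 did not overlap between S34F dox+ and WT dox+ and 4 did not overlap between WT dox+ and WT dox-. With 2 libraries against 2 these carry no test that could pass a threshold. RN7SK over RMRP was 2.98 and 2.80 in S34F dox+ and between 2.12 and 2.58 in the other 7 libraries. RN7SK over RPPH1 was 11.0 and 11.3 in S34F dox+ and between 9.18 and 10.8 in the other 7. Both ratios were thus at their highest in the S34F dox+ libraries. RN7SL2 over RPPH1 was 18.6 and 17.3 in S34F dox+, 17.1 and 17.2 in WT dox+ and between 16.8 and 18.5 in the other 5 libraries. RMRP over RPPH1 overlapped, at 3.70 and 4.03 against 4.21 and 3.85.

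WT dox+ was set against WT dox- to follow the induction of WT U2AF1, which cannot be told apart here from the addition of doxycycline. None of the 8 RNAs had an adjusted p under 0.05 in limma, beside 0.0132% of all genes, and 0 had an unadjusted p under 0.05, beside 14.4% of all genes. RN7SK was higher in both WT dox+ libraries than in both WT dox- libraries, as were 28.9% of all genes. In TPM this held for RN7SK and RPPH1, with 31.3% of all genes higher and 18.1% lower. The log2 difference of RN7SK in FPKM was 0.14 (SE 0.11, 95% interval -0.12 to 0.39). The differences of RN7SL1, RN7SL2, RMRP and RPPH1 lay between -0.06 and 0.04, and the intervals of these 4 between -0.37 and 0.31. The direction of each of them depended on the scaling or on a single library. RNU12 was at -0.09 (95% interval -0.99 to 0.82). No fold is given for RNU11 here, since WT dox- replicate 1 was listed at 0.

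The difference between the doxycycline responses of the S34F and WT lines rests on 1 S34F dox- library, which is assumed to vary like the others. In limma 0 of the 8 RNAs had an adjusted p under 0.05, beside 0.0264% of all genes, and 0 had an unadjusted p under 0.05, beside 3.42%. RNU12 was at 1.39 on the log2 scale (SE 0.61, 95% interval -0.04 to 2.82, adjusted p = 1 in limma), at 0.86 without S34F dox+ replicate 1 and at 0.88 without WT dox- replicate 1. RNU11 was at -3.75 with an SE of 5.92, a fit in which WT dox- replicate 1 enters at 0. RN7SL2 was at 0.27, RN7SL1 at 0.22, RPPH1 at 0.21, RN7SK at 0.16 and RMRP at 0.07, with SEs from 0.16 to 0.21. This comparison shares the WT dox+ and S34F dox+ libraries with those above.

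Between WT dox- and the parental line, where the line and possibly doxycycline differ together and cannot be told apart, the estimates of RN7SK, RN7SL1, RN7SL2, RMRP and RPPH1 were all below 0 and none passed the threshold. RMRP overlapped between the groups and was at 0.25 after quantile normalization. In FPKM 4 RNAs were lower without overlap in WT dox- (RN7SK, RN7SL1, RN7SL2 and RPPH1), as were 22.4% of all genes. In TPM there were 3, without RN7SL2, beside 15.4% of all genes lower and 31.2% higher. RN7SK fell short of the threshold with a log2 difference of -0.35 (SE 0.11, 95% interval -0.60 to -0.09, limma unadjusted p = 0.0148, adjusted p = 0.285). RPPH1 was at -0.22 (SE 0.10), RN7SL1 at -0.21 (SE 0.14), RMRP at -0.16 (SE 0.12) and RN7SL2 at -0.13 (SE 0.13). In this comparison 0.0988% of all genes had an adjusted p under 0.05, none of them among the 8 RNAs, and 12.3% had an unadjusted p under 0.05.

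The proteins that bind these RNAs were read from their messenger RNAs. None of the listed genes passed the limma threshold in any of the 4 comparisons, so the counts that follow are at an unadjusted p under 0.05, which 6.78% of all genes met in S34F dox+ against WT dox+ (609 higher and 420 lower) and 14.4% in WT dox+ against WT dox-. They carry no test of the lists. Of 11 genes for minor spliceosome proteins, 0 passed in S34F dox+ against WT dox+, with a median log2 difference of -0.02. SNRNP25, a protein of the U11 particle, was at 0.19 (SE 0.20), and ZCRB1, a protein of the U11/U12 particle, was at -0.12 (SE 0.15). Of 21 genes known to hold minor introns, 1 was higher and 0 were lower, with a median of -0.04. That gene was VPS16, for a subunit of vesicle tethering complexes, at 0.47 (SE 0.16, limma adjusted p = 0.619), chosen after its values were seen. Its FPKM was 9.68 and 11.4 in S34F dox+, 6.98 and 7.57 in WT dox+ and 9.02 to 10.6 in the uninduced libraries. In WT dox+ against WT dox-, 1 of the 21 genes was higher and 4 were lower, VPS16 (-0.38, SE 0.16) among the latter, with a median of -0.08. Of the 11 minor spliceosome genes, 0 were higher and 1 was lower there, with a median of 0.03. The median of all genes tested was 0.05.

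Of 7 genes for 7SK and P-TEFb proteins, 1 was lower and 0 were higher in S34F dox+ than in WT dox+, beside 6.78% of all genes in either direction. LARP7, which binds and stabilizes the 3′ end of 7SK RNA, was at 30.0 and 33.9 FPKM in S34F dox+ and at 39.7 and 39.0 FPKM in WT dox+, and between 43.1 and 51.0 FPKM in the other 5 libraries. Its log2 difference was -0.29 (SE 0.12, limma adjusted p = 0.709), while RN7SK itself was at 0.31. MEPCE, which caps the 5′ end of 7SK RNA, was at 0.09 (SE 0.12). The kinase subunit CDK9 was at -0.01 (SE 0.12) and its cyclin CCNT1 at -0.20 (SE 0.13).

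Of 8 genes for SRP proteins and the SRP receptor, 0 passed in S34F dox+ against WT dox+, and SRP14 (-0.10, SE 0.12) and SRP9 (0.09, SE 0.14), which form the domain that pauses translation, lay on either side of 0. Of 10 genes for RNase P and RNase MRP proteins, 1 was lower, RPP25, at -0.31 (SE 0.13, limma adjusted p = 0.728), beside 6.78% of all genes in either direction. In WT dox+ against WT dox-, 2 of the 8 SRP genes and 3 of the 10 RNase P and MRP genes were lower and none was higher, beside 14.4% of all genes (1335 higher and 849 lower). The medians were -0.21 for the SRP list (-0.27 to -0.10 when a replicate was left out) and -0.32 for the RNase P and MRP list (-0.60 to -0.25), against 0.05 for all genes tested. In WT dox- against parental the medians of these lists were 0.21 and 0.23, with 0 for all genes tested, so WT dox- itself stood above the parental line. POP7, a shared subunit of both ribonucleases, was at 15.9 and 16.6 FPKM in WT dox+ and at 25.4 and 22.1 FPKM in WT dox- (log2 difference -0.52, SE 0.12, limma adjusted p = 0.172). It was at 16.6 and 17.2 FPKM in S34F dox+, 23.8 in S34F dox-, and 20.4 and 20.9 in the parental line. RPP21, a subunit of RNase P, was at -0.77 (SE 0.23, limma adjusted p = 0.229). The RNAs RMRP and RPPH1 stayed at -0.04 and 0.04 in the same comparison.

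Of 23 genes for RNA polymerase III subunits and small RNA gene transcription factors, 1 was higher and 0 were lower in S34F dox+ against WT dox+ (median 0.04), and 1 was higher and 4 were lower in WT dox+ against WT dox- (median -0.12), beside 6.78% and 14.4% of all genes in either direction. Of 10 measured genes for proteins that bind or process RNA 3′ ends, 0 passed in S34F dox+ against WT dox+. SSB, which binds new transcripts of RNA polymerase III, was at -0.26 (SE 0.15), and LSM6 was at -0.13 (SE 0.12).

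**Figure D5:**
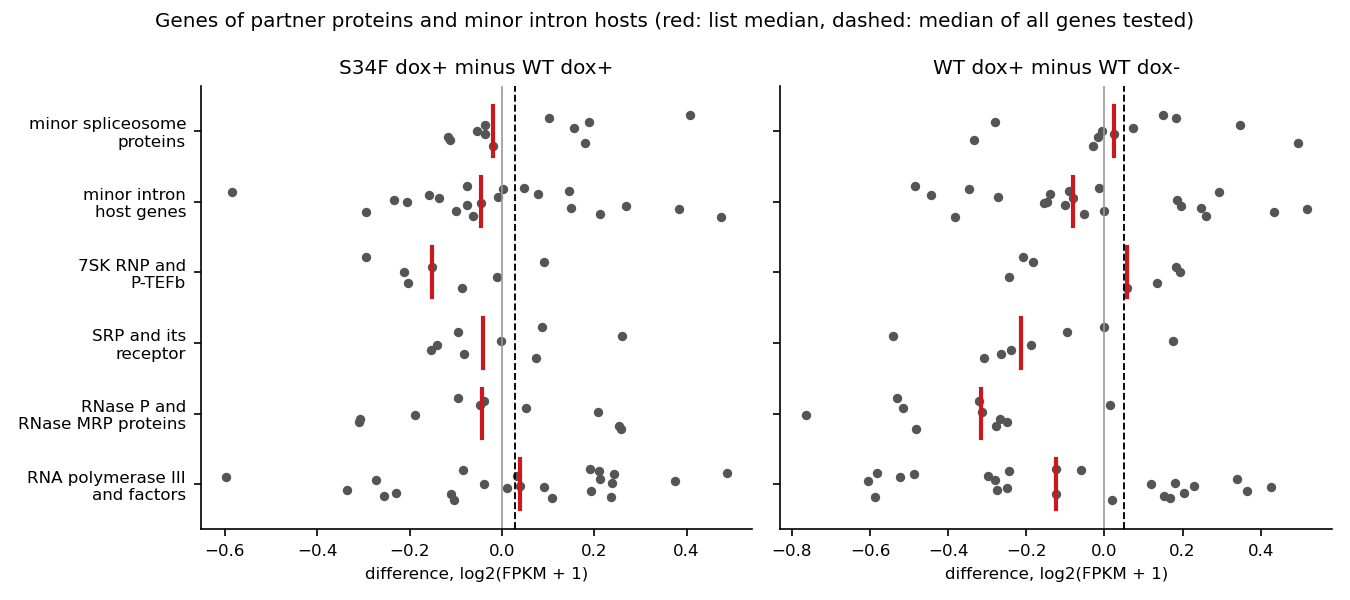
Each grey point is the limma difference in log2(FPKM + 1) of 1 gene (x axis) in a list of partner proteins, of genes with minor introns or of RNA polymerase III genes (rows), for S34F dox+ minus WT dox+ (left) and WT dox+ minus WT dox- (right). The red bars, the list medians, lie between -0.15 and 0.04 on the left and between -0.32 and 0.06 on the right, and dashed lines mark the medians of all genes tested, 0.03 and 0.05.

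Other structured RNAs were rarely measured: of 25 looked up, 23 were in the table, 4 passed the minimum (RNU4-1, RNU4-2, RN7SL3 and TERC) and the other 19, among them Y RNAs and vault RNAs, were listed at 0 in all 9 libraries. All 4 estimates for S34F dox+ against WT dox+ were above 0, with a median of 0.47, against 0.03 for all genes tested. RNU4-1, for the U4 RNA of the major spliceosome, was at 6614 and 6196 FPKM in S34F dox+, 3899 and 3631 in WT dox+, 6026 and 4580 in WT dox-, 4132 in S34F dox-, and 5839 and 7578 in the parental line. Its difference was 0.77 (SE 0.17, limma adjusted p = 0.442), and RNU4-2, a near-identical gene, was at 0.23 (SE 0.14). TERC, the telomerase RNA, was at 0.44 (SE 0.19).

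RN7SL3 is a relative of RN7SL2 that RefSeq places next to it, and its difference from RN7SL1 and RN7SL2 was not tested. It was at 715 and 763 FPKM in WT dox+, 1700 and 1400 in WT dox-, 1535 in S34F dox-, 1051 and 1048 in S34F dox+, and 1139 and 949 in the parental line. The WT dox+ libraries were thus the lowest and the WT dox- libraries, with S34F dox-, among the highest. The log2 difference between WT dox+ and WT dox- was -1.06 (SE 0.13, limma unadjusted p = 5.29e-05, adjusted p = 0.073), against -0.0025 for RN7SL1 and -0.06 for RN7SL2. Between S34F dox+ and WT dox+ it was 0.51 (SE 0.13, adjusted p = 0.536 in limma).

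In the RefSeq table, used for names only, all 9 RNAs matched. RN7SL1 overlaps RPS29, RNU4ATAC lies within CLASP1, and RNU11 overlaps TAF12-DT. RMRP is next to CCDC107, RPPH1 next to PARP2 and RNU12 next to POLDIP3. The kit marks the strand, but whether the counting used it is not given in the sources used here, so reads of an RNA and of an overlapping gene may not be told apart. RPS29 and TAF12-DT were not looked up, nor were LOC105378179 and LOC124902297, which overlap RN7SL2 and RNU6ATAC. Levels were looked up for 4 of the genes named above. They were far below those of the adjacent RNA for PARP2 (27.9 to 34.1 FPKM), POLDIP3 (14.4 to 19.1) and CCDC107 (14.0 to 19.8), whereas CLASP1 (13.5 to 24.7) was above RNU4ATAC in the 8 libraries where the latter was listed at 0. None of the 4 had an unadjusted p under 0.05 in S34F dox+ against WT dox+.

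The genes most like the RNAs over the 9 libraries were sought among 10016 genes averaging 5 FPKM or more, by Pearson r of log2(FPKM + 1), as a description of points that share libraries and scaling. For RNU11 they were SNORA38B (r = 0.97), which was at 0 in the same 2 libraries, and POT1 (0.94). For RN7SK they were CYB5R1 (0.96) and RAB11FIP1 (0.95), and for RN7SL1 they were RN7SL4P (0.95), a copy of 7SL that may share its reads, and TMEM57 (0.94). RN7SL2 had the same pair, at 0.91 and 0.92. For RMRP they were ASNA1 (0.95) and CPT2 (0.94), and for RPPH1 ALDH9A1 (0.96) and SQSTM1 (0.95). RNU4ATAC was matched by 1 row of SNORA63, another than the one above, and 1 row of SNORA1, both likewise above 0 only in parental replicate 1. Among the RNAs themselves, RN7SL1 and RPPH1 had an r of 0.94 on log2 FPKM and 0.80 on log2 TPM, whereas RN7SL1 and RMRP went from 0.54 to -0.26.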

How the data were processed

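RNA-Seq libraries were made from total RNA with a stranded kit. The submitters' processing notes name STAR 2.3.0, RSEM 1.2.29 and the build GRCh37 (hg19). The deposited table gives FPKM and TPM per gene and library, both computed by the authors with RSEM. RSEM divides by a transcript length corrected for fragment length, a correction that weighs most on short RNAs. No counts were among the values, so no count test was run. The parental, WT and S34F libraries were grouped by the labels. The deposited splicing tables hold the authors' comparisons of inclusion between conditions and were not used, and the 2 iCLIP samples were not analysed here.

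log2(FPKM + 1) was fitted with limma 3.58.1 (trend) in R 4.3.3, in 1 model of the 5 groups, for genes that averaged at least 1 FPKM, with two-sided tests, Benjamini-Hochberg adjustment over all genes and a threshold of 0.05. The fit was tested on simulated data with a capped spread and planted differences far larger than those of the abundant RNAs here. That test thus does not show whether differences of their size would be found. The members and lists were chosen with earlier results of these data known. Named were all 9 RNAs, listed genes past the threshold and otherwise up to 4 per list with the highest mean FPKM, and the 2 genes most like each RNA. Those of RNU12 are not reported here. U2AF1 is given as the induced gene, and VPS16, SNORA18 and SNORA63 were named after their values were seen. Coordinates are not printed, because the RefSeq table used for names is of another build (GRCh38). Alternatives covered the pseudocount, the minimum, TPM, scaling, a block for replicate number, fits to the compared libraries only and each replicate left out. Scaling to nuclear protein-coding genes was chosen after seeing the data.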

Additional observations from a re-analysis of the deposited data

How the results depend on the processing

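Under every alternative run, 0 of the noncoding RNAs followed had an adjusted p under 0.05 in limma. These were the RNAs with no library listed at 0 in the groups compared. RNU4ATAC, and RNU11 outside S34F dox+ against WT dox+, were thus not followed through the alternatives. The share of the 9 RNAs in total TPM was 20.2% with mitochondrially encoded genes left out of the total. Small differences changed sign on the log2 scale, and the cause was not tested. With TPM in place of FPKM these were RMRP in S34F dox+ against WT dox+ (-0.0054) and in the difference of responses (-0.082), RN7SL1 in WT dox+ against WT dox- (0.026), and RNU12 (0.0075) and RNU4-2 (0.017) in WT dox- against parental. Median-ratio scaling turned RPPH1 (-0.084) and TERC (-0.078) in WT dox+ against WT dox- and RMRP in the difference of responses (-0.087). Quantile normalization, which fixes the values of the first ranks by construction, turned RMRP in S34F dox+ against WT dox+ (-0.13), RMRP (-0.43) and RN7SK (-0.31) in the difference of responses, and RMRP (0.25) and RNU4-2 (0.015) in WT dox- against parental. Scaling to nuclear protein-coding genes turned RN7SL1 (0.076), RN7SL2 (0.015) and RMRP (0.040) in WT dox+ against WT dox-.

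Leaving out each replicate in turn moved WT dox+ against WT dox- from -0.60 to 0.42 for RNU12, -0.10 to 0.099 for RN7SL1, -0.15 to 0.018 for RN7SL2, -0.15 to 0.077 for RMRP, -0.043 to 0.11 for RPPH1 and -0.15 to 0.22 for TERC. It moved RMRP in the difference of responses from -0.045 to 0.19 and RNU12 in WT dox- against parental from -0.61 to 0.42. Same-numbered replicates did not deviate together (correlations from -0.08 to 0.04), and with a replicate block 5, 0, 3 and 6 of all genes passed in the 4 comparisons, in the order of the report, in place of 8, 2, 4 and 15. Without a minimum FPKM these counts were 126, 111, 496 and 21, and with the compared libraries only they were 0, 1, 5 and 3. Leaving out a replicate gave 1 (without WT dox+ replicate 2) to 29 (without S34F dox+ replicate 1), 0 to 10, 2 to 11 and 3 to 23. In S34F dox+ against WT dox+, genes at an unadjusted p under 0.05 split into 609 higher and 420 lower in FPKM, 323 and 1030 in TPM, 375 and 524 after median-ratio scaling and 559 and 616 after quantile normalization. Groups of 1 or 2 libraries and an unknown depth limit the precision to the intervals given.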
